A study of Mus musculus with 4 samples.

Results

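The 39 genes described here encode proteins of mitosis and chromosome segregation: the mitotic cyclins and Cdk1, the mitotic kinases, the spindle checkpoint, the kinetochore, spindle motors, condensin and the cytokinesis machinery. They were chosen by name from a list and looked up in the gene name column of the array annotation, where Cdk1 stood under its older name Cdc2a. All 39 were found, among 28307 genes or gene names on the array, and each was represented by its brightest probe over the 4 arrays.

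The RNA came from B220 B cells (B220 is a form of the surface protein CD45 found on B lineage cells) and was hybridised to 4 Agilent 1-colour arrays, with 1 array for each group. The groups were spleen of Mef2c KO mice (spleen KO), spleen of C57BL/6 mice (spleen WT), bone marrow of Mef2c KO mice (marrow KO) and bone marrow of C57BL/6 mice (marrow WT). All mice were naive, with no treatment given, and the cells were not cultured. The sources used here do not give the age or sex of the mice, how many were pooled for an array, the isolation of the cells, the promoter behind any Cre, the deleted part of Mef2c or the strain background of the KO. Each group is thus a single array, and precision is limited by their number.

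In vertebrate cells the transcripts of this gene set are low in resting cells and early in the cycle and are made in late S phase, G2 and mitosis. In resting cells the DREAM complex, which holds the MuvB core, represses many of them through a short promoter element, the cell cycle genes homology region (CHR). In dividing cells MuvB works with B-Myb and FoxM1 on the same genes, often beside CCAAT boxes bound by NF-Y. In the B lineage, large pre-B cells of the marrow divide after a successful heavy chain rearrangement, while most follicular B cells of an unstimulated spleen rest.

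The promoter sequences are shown because many of the genes share this known element, which the choice of genes did not use. RefSeq windows (build GRCm38.p6) of 300 bases, from 250 before to 50 after a transcript start, were matched by symbol for 34 of the 39 genes, with 36 windows in all. Ccna2, Tpx2, Cdc25c, Aurkb and Kif20a had no window in the table used. Below, 150 bases before and 30 bases from the start on are printed in the direction of transcription. Capitals mark the known CHR hexamer TTTGAA, which reads as TTCAAA where it lies on the other strand. They also mark a related hexamer, TTTAAA, which is its own reverse complement, and the CCAAT box, which reads as ATTGG from the other strand. Ccnb2 (chr9:70421525-70421704, minus strand), Cdk1 (chr10:69352883-69353062, minus), Cdc20 (chr4:118437314-118437493, minus) and Ttk (chr9:83834539-83834718, plus) stand for genes that hold TTTGAA, in Ttk on the other strand. Cks2 (chr13:51645082-51645261, plus) and Mad2l1 (chr6:66535071-66535250, plus) stand for genes whose windows hold neither hexamer. The choice of these 6 was made after their values were seen.
Ccnb2: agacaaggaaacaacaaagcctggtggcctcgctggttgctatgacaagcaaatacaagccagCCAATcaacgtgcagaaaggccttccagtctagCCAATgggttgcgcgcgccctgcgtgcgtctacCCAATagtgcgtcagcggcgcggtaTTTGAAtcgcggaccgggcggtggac
Cdk1: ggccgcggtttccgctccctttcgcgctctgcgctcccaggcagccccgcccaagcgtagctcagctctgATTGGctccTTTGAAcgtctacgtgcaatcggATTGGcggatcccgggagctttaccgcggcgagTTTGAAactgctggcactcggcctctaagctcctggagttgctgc
Cdc20: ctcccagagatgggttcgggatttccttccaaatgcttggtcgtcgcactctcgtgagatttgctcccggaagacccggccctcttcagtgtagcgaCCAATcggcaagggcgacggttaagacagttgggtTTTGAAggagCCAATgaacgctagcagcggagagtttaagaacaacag
Ttk: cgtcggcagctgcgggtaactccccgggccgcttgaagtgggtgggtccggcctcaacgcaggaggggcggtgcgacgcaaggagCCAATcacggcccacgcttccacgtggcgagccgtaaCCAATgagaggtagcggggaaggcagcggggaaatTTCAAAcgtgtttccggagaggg
Cks2: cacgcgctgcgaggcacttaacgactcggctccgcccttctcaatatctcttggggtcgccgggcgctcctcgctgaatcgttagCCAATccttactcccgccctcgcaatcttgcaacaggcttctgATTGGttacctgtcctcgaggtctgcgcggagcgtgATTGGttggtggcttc
Mad2l1: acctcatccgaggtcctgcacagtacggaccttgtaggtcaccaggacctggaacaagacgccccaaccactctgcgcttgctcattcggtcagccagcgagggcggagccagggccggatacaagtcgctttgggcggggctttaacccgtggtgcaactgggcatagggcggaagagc

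Both strands of each window were searched. TTTGAA was present in 27 of the 36 windows (75%), against 17.9% of all 32851 windows of this length in the table. TTTAAA was present in 9 (25%), against 13.2%. Either hexamer was found in 30 windows (83.3%), against 27.6%, and lay within 50 bases of the start in 26 (72.2%), against 8.28%; that narrower window was chosen after seeing the matches. CCAAT was present in 28 windows (77.8%), against 37.4%, and at least 2 copies stood in 19 (52.8%), against 11.7%. A CCAAT box and a hexamer together were found in 26 windows (72.2%), against 10.7%. Genes whose window held neither hexamer were Bub1, Cks2, Mad2l1, Ncaph, Nuf2 and Nusap1. Their KO minus WT differences in spleen (log2) went both ways, at 2.18 for Cks2, 1.24 for Mad2l1, 0.81 for Bub1, 0.55 for Nusap1, -0.19 for Nuf2 and -1.93 for Ncaph. These are matches of letters, shown without a test, and no factor binding was measured.

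Values are given as a relative signal, the background-corrected signal of the probe divided by the 75th percentile of all gene spots on the same array, so that 1 marks that percentile. Differences are on the log2 scale, as KO minus WT or spleen minus marrow. Probes differ in brightness for reasons other than transcript number, so a relative signal is compared only across arrays for 1 probe. A gene counts as measured in a comparison if both arrays had its probe well above background. If only 1 array did, the difference is a lower bound: the dim side is set at its own level or at the lowest level well above background on that array, whichever is higher. For Espl1 its own level was the higher, so its value is a measured difference from a dim spot, not a true bound. Among the 39 genes, 36 were well above background on all 4 arrays, and Espl1, Hmmr and Anln were not on spleen KO. Feature Extraction's own error, which covers the spot only, was close to 10% of the signal for most of these spots. This gives a median error of 0.20 (log2) for a difference between arrays. The error was largest for dim spots on spleen KO, at 100% for Anln, 29.3% for Hmmr, 24.2% for Espl1 and 19.3% for Ttk.

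The spleen KO array was dimmer than the others. Its 75th percentile was 519.9 signal units, against 970.4 on spleen WT, 1008.5 on marrow KO and 960.9 on marrow WT, and 59.3% of its gene spots were well above background, against 69.1% to 71.98% on the others. Both spleen arrays were on slide 2 and both marrow arrays on slide 1, each slide in a scan of its own, so tissue and slide cannot be told apart; on either slide KO took position 1 and WT position 2, so genotype and position cannot be told apart either. Mef2c itself had a relative signal of 22.8 on spleen KO against 8.79 on spleen WT. In the marrow it was at 5.46 on the KO array against 4.39 on the WT array, so its brightest probe was not lower on the arrays labelled KO. Without the deleted part of the gene this probe checks nothing, and every KO minus WT direction below rests on the labels. Of the B lineage markers, 7 (Cd79a, Cd79b, Ptprc, Ms4a1, Pax5, Blnk and Cd22) were well above background on every array, with summed relative signals of 1161 on spleen KO, 659 on spleen WT, 458 on marrow KO and 511 on marrow WT. Each sum over a marker list is a summary across arrays in which the brightest probes weigh most, so counts and medians of single markers are given beside the comparisons.

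The comparison of tissues asks how B220 cells differ between the periphery and the site where they develop. Transcripts of all 39 genes were lower in spleen than in marrow, in both genotypes. In limma's fit of all 4 arrays with tissue and genotype as terms, each of the 39 fell in spleen at a Benjamini-Hochberg adjusted p under 0.05 over 22059 genes, where 1180 genes (5.35%) fell. The median difference was -3.76 over the 39 genes, against -0.01 over all genes tested, and the values ran from -4.74 for Ccna2 to -2.20 for Cenpa. Every gene of the set was at least 4-fold lower, a size reached by 5.93% of all genes; 32 were at least 8-fold lower, against 2.81% of all genes, and 9 at least 16-fold lower, against 1.26%. For Espl1, Hmmr and Anln the fit uses their own dim level on spleen KO, not a bound. Espl1 and Anln are among the 9 genes at least 16-fold lower. The fit takes both genotypes as repeats of 1 tissue effect and has 1 residual degree of freedom. To this limma adds a prior of 9.47 degrees of freedom shared by all genes. The standard errors (SE) given below thus come mostly from that prior and do not measure a spread between mice. Since the RNA is that of all cells together, fewer dividing cells and less of each transcript per cell cannot be told apart.

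**Figure D1:**
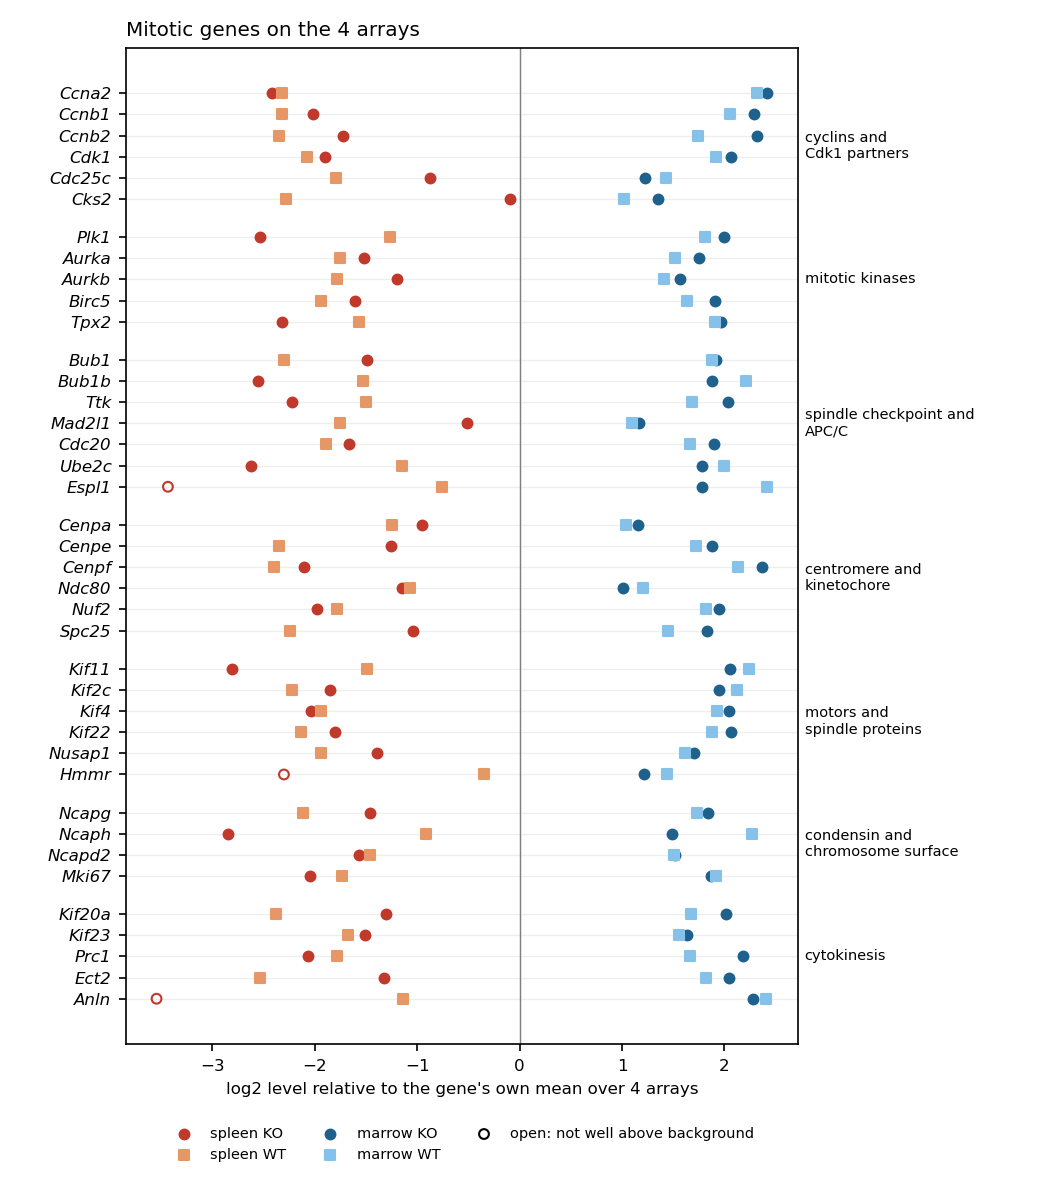
Log2 level of each of the 39 genes on each array, relative to the gene's own mean over the 4 arrays, grouped by role; red and orange points are spleen KO and spleen WT, dark and light blue points marrow KO and marrow WT, and open points were not well above background. In every gene both spleen points lie left of both marrow points, and the spleen KO and WT points lie farther apart than the marrow points in many genes.

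Without any fit, the levels of both spleen arrays lay below those of both marrow arrays in 39 of 39 genes, which held for 23.8% of the 22059 genes tested. The lower marrow value was between 2.17 and 25 times the higher spleen value. In KO mice all 39 genes were at least 2-fold lower in spleen than in marrow, bounds included, against 13.9% of genes in all, with a median of -3.68 over the 36 measured and -3.80 with bounds. In WT mice all 39 were at least 2-fold lower, against 15.7%, with a median of -3.56. Over all genes the medians were 0.19 in KO and -0.07 in WT.

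**Figure D2:**
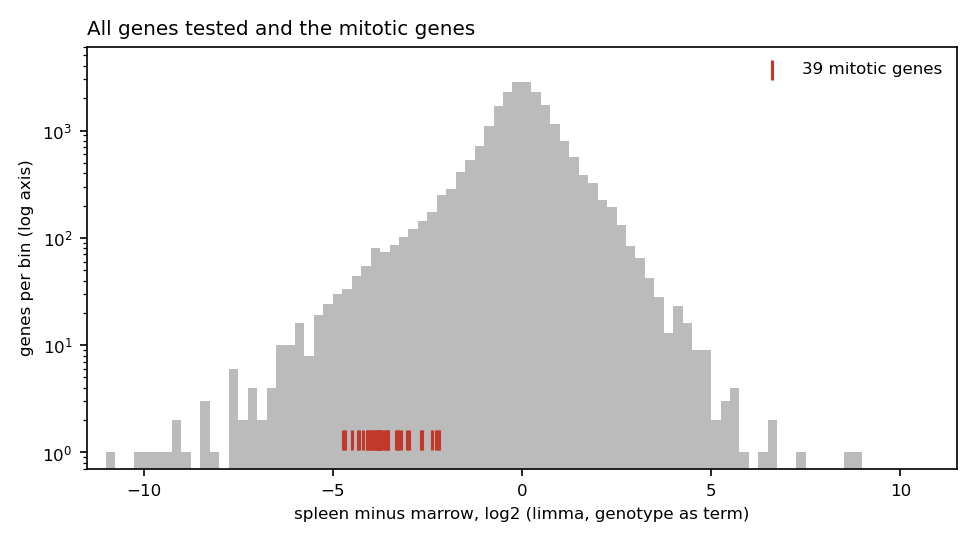
Distribution of the spleen minus marrow difference (log2, x axis) over the 22059 genes tested, as genes per bin on a log axis, with a red tick for each of the 39 mitotic genes. The ticks lie between -4.74 and -2.20, left of the bulk of genes around 0.

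Among the cyclins and the partners of Cdk1, the kinase whose activity drives entry into mitosis, all 6 genes fell in spleen. Ccna2, the cyclin of S phase and of entry into mitosis, had a relative signal of 0.998 on spleen KO and 1.07 on spleen WT, against 28.6 on marrow KO and 26.7 on marrow WT. Its difference of -4.74 ± 0.54 (SE) in limma's fit was the largest of the 39 (26.8-fold lower, adjusted p = 0.000648), and its probe lies at chr3:36463978-36464037 of mouse build mm9. Ccnb1, a cyclin that binds Cdk1 in mitosis, had 0.227 on spleen KO and 0.184 on spleen WT, against 4.48 on marrow KO and 3.82 on marrow WT. Ccnb2, its relative, had 3.50 on spleen KO and 2.27 on spleen WT, against 57.8 on marrow KO and 38.7 on marrow WT. For Cdk1 the values were 0.526 on spleen KO and 0.464 on spleen WT, against 8.20 on marrow KO and 7.39 on marrow WT. In these 4 genes the tissues stood much farther apart than the genotypes, with limma differences of -4.74 to -3.98 between tissues. Between genotypes Ccnb2 differed most, with KO higher by 0.58 in marrow and 0.63 in spleen.

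The remaining partners of Cdk1 had smaller differences. Cdc25c, a phosphatase that removes inhibitory phosphates from Cdk1, had 0.0688 on spleen KO and 0.0364 on spleen WT, against 0.295 on marrow KO and 0.340 on marrow WT, and its difference was -2.66. Cks2, a small subunit that binds Cdk1, had 15.2 on spleen KO and 3.34 on spleen WT, against 41.3 on marrow KO and 32.8 on marrow WT. The 2 spleen arrays of Cks2 thus lay far apart, with KO the higher. Its limma difference between tissues was -2.37 ± 0.61 (SE), with the highest adjusted p of the set (0.0370).

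All 5 genes of the mitotic kinases and their partners fell in spleen, by -3.88 (Tpx2) to -2.98 (Aurkb). Plk1, a kinase of centrosome maturation and spindle assembly, had 0.966 on spleen KO and 2.33 on spleen WT, against 22.4 on marrow KO and 19.6 on marrow WT. Aurka, a kinase of the spindle poles, had 2.15 on spleen KO and 1.82 on spleen WT, against 20.7 on marrow KO and 17.6 on marrow WT. Tpx2, the spindle protein that activates the Aurka product, had 0.376 on spleen KO and 0.634 on spleen WT, against 7.33 on marrow KO and 7.06 on marrow WT. Aurkb and Birc5 (survivin) belong to the chromosomal passenger complex, which corrects the attachment of chromosomes to the spindle. Aurkb had 0.923 on spleen KO and 0.613 on spleen WT, against 6.27 on marrow KO and 5.60 on marrow WT. Birc5 had 6.55 on spleen KO and 5.20 on spleen WT, against 75.1 on marrow KO and 61.9 on marrow WT. Plk1 and Tpx2 were lower on spleen KO than on spleen WT, and Aurka, Aurkb and Birc5 higher.

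The 7 genes of the spindle checkpoint, which delays anaphase until every kinetochore is attached, and of the anaphase-promoting complex (APC/C) fell by -4.19 (Espl1) to -2.27 (Mad2l1). Bub1, a checkpoint kinase, had 0.504 on spleen KO and 0.287 on spleen WT, against 5.36 on marrow KO and 5.20 on marrow WT. Bub1b, a part of the inhibitor of the APC/C, had 0.313 on spleen KO and 0.639 on spleen WT, against 6.75 on marrow KO and 8.50 on marrow WT. Ttk, the kinase that starts checkpoint signalling, had 0.0405 on spleen KO and 0.0668 on spleen WT, against 0.775 on marrow KO and 0.608 on marrow WT. The spleen arrays were ordered one way in Bub1 and the other way in Bub1b and Ttk. Mad2l1, which binds and holds Cdc20, had 2.08 on spleen KO and 0.879 on spleen WT, against 6.66 on marrow KO and 6.35 on marrow WT, so the spleen KO value stood nearest to the marrow.

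Cdc20, the activator of the APC/C, had 2.77 on spleen KO and 2.38 on spleen WT, against 32.8 on marrow KO and 27.9 on marrow WT. Ube2c, the enzyme that delivers ubiquitin to the APC/C, had 0.442 on spleen KO and 1.23 on spleen WT, against 9.39 on marrow KO and 10.9 on marrow WT. Espl1 encodes separase, the protease that cuts cohesin at anaphase. Its signal was not well above background on spleen KO (0.0383) and was 0.244 on spleen WT, against 1.42 on marrow KO and 2.21 on marrow WT. In WT mice this is 9.04-fold lower in spleen than in marrow. In KO mice the fold was 37.1, taken from a dim spot whose error was 24.2% of its signal.

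The 6 genes of the centromere and the kinetochore, where chromosomes attach to microtubules, fell by -4.50 (Cenpf) to -2.20 (Cenpa). Cenpa, the histone variant that marks the centromere, had 1.74 on spleen KO and 1.42 on spleen WT, against 7.53 on marrow KO and 6.95 on marrow WT. Cenpe, a kinesin of the kinetochore, had 3.02 on spleen KO and 1.41 on spleen WT, against 26.6 on marrow KO and 23.9 on marrow WT. Cenpf, a large kinetochore protein, had 0.730 on spleen KO and 0.595 on spleen WT, against 16.1 on marrow KO and 13.8 on marrow WT. Ndc80, Nuf2 and Spc25 encode subunits of 1 complex, which binds microtubule ends. Ndc80 had 0.595 on spleen KO and 0.628 on spleen WT, against 2.66 on marrow KO and 3.05 on marrow WT. Nuf2 had 0.506 on spleen KO and 0.578 on spleen WT, against 7.66 on marrow KO and 7.02 on marrow WT. Spc25 had 1.12 on spleen KO and 0.487 on spleen WT, against 8.17 on marrow KO and 6.27 on marrow WT. The limma differences of these subunits were -2.22 ± 0.54 (SE) for Ndc80, -3.76 ± 0.54 for Nuf2 and -3.28 ± 0.55 for Spc25.

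The 6 genes of motors and spindle proteins fell by -4.30 (Kif11) to -2.65 (Hmmr). Kif11, the kinesin that pushes spindle poles apart, had 0.0952 on spleen KO and 0.237 on spleen WT, against 2.78 on marrow KO and 3.15 on marrow WT. Kif2c, a kinesin that shortens microtubules, had 0.0683 on spleen KO and 0.0527 on spleen WT, against 0.951 on marrow KO and 1.07 on marrow WT. Kif4 and Kif22 are kinesins that bind chromosome arms. Kif4 had 0.357 on spleen KO and 0.380 on spleen WT, against 6.02 on marrow KO and 5.57 on marrow WT. Kif22 had 3.28 on spleen KO and 2.61 on spleen WT, against 48.0 on marrow KO and 42.1 on marrow WT. Nusap1, a protein of spindle microtubules, had 1.74 on spleen KO and 1.19 on spleen WT, against 14.9 on marrow KO and 14.0 on marrow WT. Hmmr, a spindle pole protein that also binds hyaluronan, was not well above background on spleen KO (0.0271) and had 0.105 on spleen WT, against 0.309 on marrow KO and 0.361 on marrow WT. It was at least 9.51-fold lower in spleen than in marrow in KO mice and 3.45-fold lower in WT mice, the smallest WT difference of the set.

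Condensin compacts mitotic chromosomes, and Ki-67, the product of Mki67, coats them and marks dividing cells. These 4 genes fell by -3.79 (Mki67) to -3.03 (Ncapd2). Ncapg had 1.82 on spleen KO and 1.16 on spleen WT, against 17.9 on marrow KO and 16.6 on marrow WT. Ncaph had 0.0925 on spleen KO and 0.353 on spleen WT, against 1.86 on marrow KO and 3.19 on marrow WT, lower in KO in both tissues. Ncapd2 had 6.67 on spleen KO and 7.18 on spleen WT, against 56.7 on marrow KO and 56.2 on marrow WT. Mki67 had 5.74 on spleen KO and 7.13 on spleen WT, against 87.1 on marrow KO and 89.8 on marrow WT. By these brightest probes Ncapd2 and Mki67 lay close in both genotypes of a tissue, but in spleen the second Mki67 probe differed by -1.59 (KO minus WT) and the other Ncapd2 probes by -1.09 and -1.51.

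The 5 cytokinesis genes fell by -4.68 (Anln) to -3.19 (Kif23). The value of Anln includes a dim spleen KO spot whose error was 100% of its signal. Kif20a, a kinesin of the central spindle, had 2.69 on spleen KO and 1.28 on spleen WT, against 26.8 on marrow KO and 21.1 on marrow WT. Kif23, the motor of centralspindlin, had 0.809 on spleen KO and 0.721 on spleen WT, against 7.15 on marrow KO and 6.81 on marrow WT. Prc1, which bundles the microtubules of the midzone, had 1.39 on spleen KO and 1.69 on spleen WT, against 26.4 on marrow KO and 18.4 on marrow WT. Ect2 activates the GTPase RhoA at the division plane. It had 0.646 on spleen KO and 0.278 on spleen WT, against 6.69 on marrow KO and 5.71 on marrow WT. Anln encodes anillin, a scaffold of the contractile ring. It was not well above background on spleen KO (0.00825) and had 0.0437 on spleen WT, against 0.468 on marrow KO and 0.510 on marrow WT, at least 14.4-fold lower in spleen in KO mice and 11.7-fold lower in WT mice.

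The choice of scaling or probe changed the tissue call of some genes. With cyclic loess between arrays 33 of the 39 passed the same threshold, and Cdc25c, Cenpa, Cks2, Hmmr, Mad2l1 and Ndc80 did not (highest adjusted p 0.0671). With the mean over all probes of a gene 36 passed, and Bub1, Cenpa and Nuf2 did not (highest adjusted p 0.171).

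Markers of pro-B and pre-B cells were lower in spleen than in marrow, as the 39 genes were. Of 9 pro-B and pre-B markers (Dntt, Vpreb1, Vpreb3, Igll1, Rag1, Rag2, Il7r, Il2ra and Arpp21), all 9 fell in spleen in the same limma fit, with summed relative signals of 40.4 on spleen KO and 56.3 on spleen WT, against 725 on marrow KO and 465 on marrow WT. The medians over the 6 measured on both arrays were -6.66 in KO and -7.01 in WT. Igll1, Rag2 and Arpp21 were not well above background on either spleen array. The 12 neutrophil markers summed to 146 on spleen KO and 11.2 on spleen WT, against 1408 on marrow KO and 437 on marrow WT, with 10 of 12 well above background on spleen KO, 11 on spleen WT and 12 on each marrow array. Elane and Prtn3 were below that mark on spleen KO and Elane on spleen WT. Their part in the fall of the mitotic genes was not tested. The sum over the 39 genes was 70.8 on spleen KO and 53.2 on spleen WT, against 708 on marrow KO and 629 on marrow WT.

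Other cell cycle genes were lower in spleen as well, in smaller shares. Of 81 other mitotic genes 51 fell in limma's tissue term, 0 rose and 30 did not pass, where 5.35% of all genes fell and 2.82% rose. Of 28 genes of replication licensing and S phase 16 fell and 0 rose, and of 21 measured G1 cyclins, kinases and inhibitors 7 fell and 0 rose. Among 19 regulators of the G2/M gene programme (Foxm1, B-Myb, the MuvB core, E2F and pocket proteins, NF-Y and p53 with its target p21) 6 fell and 0 rose. The median spleen minus marrow differences of the other mitotic genes were -2.49 in KO and -2.83 in WT, those of the replication genes -1.88 in KO and -2.44 in WT, those of the regulators -0.47 in KO and -1.29 in WT, and those of the G1 list -1.05 in KO and -1.82 in WT. All these medians lay nearer to 0 than those of the 39 genes, which is a description of lists and not a test between them.

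Some of these genes went as far as any of the 39 and a few did not fall at all. Pbk, a mitotic kinase, differed by -4.54 in KO and -5.26 in WT, and Pimreg, a regulator of the metaphase to anaphase transition, by -5.98 in KO and -4.08 in WT. The transcriptional repressors E2f7 (-5.17 in KO and -4.70 in WT) and E2f8 (-4.42 in KO and -4.15 in WT) were the regulators with the lowest differences. Rrm2, the small subunit of ribonucleotide reductase, differed by -4.49 in KO and -4.71 in WT. Pttg1, which encodes securin, the inhibitor of separase, did not pass the test, with -0.03 in KO and 0.46 in WT, and neither did the spindle pole protein Numa1, with 0.24 in KO and 0.08 in WT. Myc, a growth-promoting transcription factor of the G1 list, differed by 1.94 in KO and 0.62 in WT and did not pass either.

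**Figure D3:**
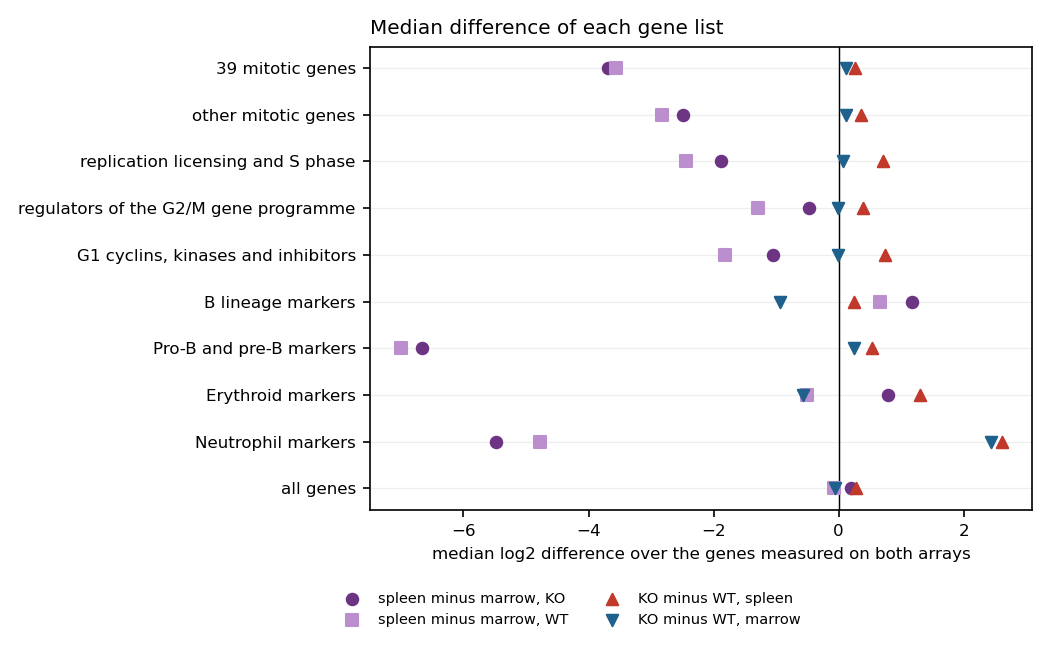
Median log2 difference of each gene list (x axis), over its genes measured on both arrays, for spleen minus marrow in KO (dark purple circles) and WT (light purple squares) and for KO minus WT in spleen (red triangles) and marrow (blue triangles). The 39 mitotic genes have medians of -3.68 and -3.56 between tissues, between those of the pro-B and pre-B markers (-6.66 and -7.01) and of the other cell cycle lists, and of 0.26 and 0.11 between genotypes.

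In the marrow, the comparison of genotypes asks whether developing B cells labelled Mef2c KO differ from WT cells at the site where they divide. None of the 39 genes was 2-fold apart in either direction, against 8.35% of all genes higher and 4.9% lower in KO. The median was 0.11, against -0.06 over all genes, and the range ran from -0.78 for Ncaph to 0.58 for Ccnb2. Above 0 lay 28 genes and below it 11, against 8727 and 10617 of the 19344 genes measured on both arrays. Within 1.5-fold lay 37 of the 39, and the exceptions were Ncaph, at a relative signal of 1.86 on KO and 3.19 on WT, and Espl1, at 1.42 on KO and 2.21 on WT (-0.64). Only 4 genes differed by more than 2 spot errors. Neither this count nor that within 1.5-fold was made over all genes. Beside these values, pro-B and pre-B markers had a median of 0.25, with 3 of 9 higher in KO by 2-fold or more, as were 11 of 12 neutrophil markers (median 2.44). Of the 7 B lineage markers 3 were lower in KO by 2-fold or more and 0 higher, with a median of -0.94, and Cd22, a co-receptor of the B cell receptor, had the lowest value (-2.43). The part of these marker differences in the marrow values was not tested.

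In limma's fit, the genotype term with tissue taken into account called 0 of the 39 genes, against 10 of 22059 genes in all (0.0453%). Unadjusted p lay under 0.05 for 2 of the 39, Espl1 (-1.65 ± 0.62, SE, adjusted p = 0.351) and Ncaph (-1.36 ± 0.56, adjusted p = 0.398). The term also called 0 of the 39 under each other scaling, background correction, probe and filter setting tried for it. The term reads an effect only as far as both tissues share it, and with 1 residual degree of freedom a miss does not show that the genotypes are alike.

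In the spleen, the array labelled KO differed from WT in many of the 39 genes, in both directions. At least 2-fold higher on KO were 6 genes, against 19.8% of all genes, and 7 were at least 2-fold lower, bounds included, against 14.4% of all genes, so the share of the set was below that of all genes in the first case and close to it in the second. The median was 0.26 over the 36 measured, against 0.27 over all genes, and the range ran from -1.93 for Ncaph to 2.18 for Cks2. More than 2 spot errors separated the arrays in 19 of the 36, a count that was not made over all genes. The median turned to -0.18 with cyclic loess and to -0.094 with the median over probes, and the 6 higher genes were 3 with either of these and 11 with array medians. These values rest on 1 array per genotype and were not tested.

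**Figure D4:**
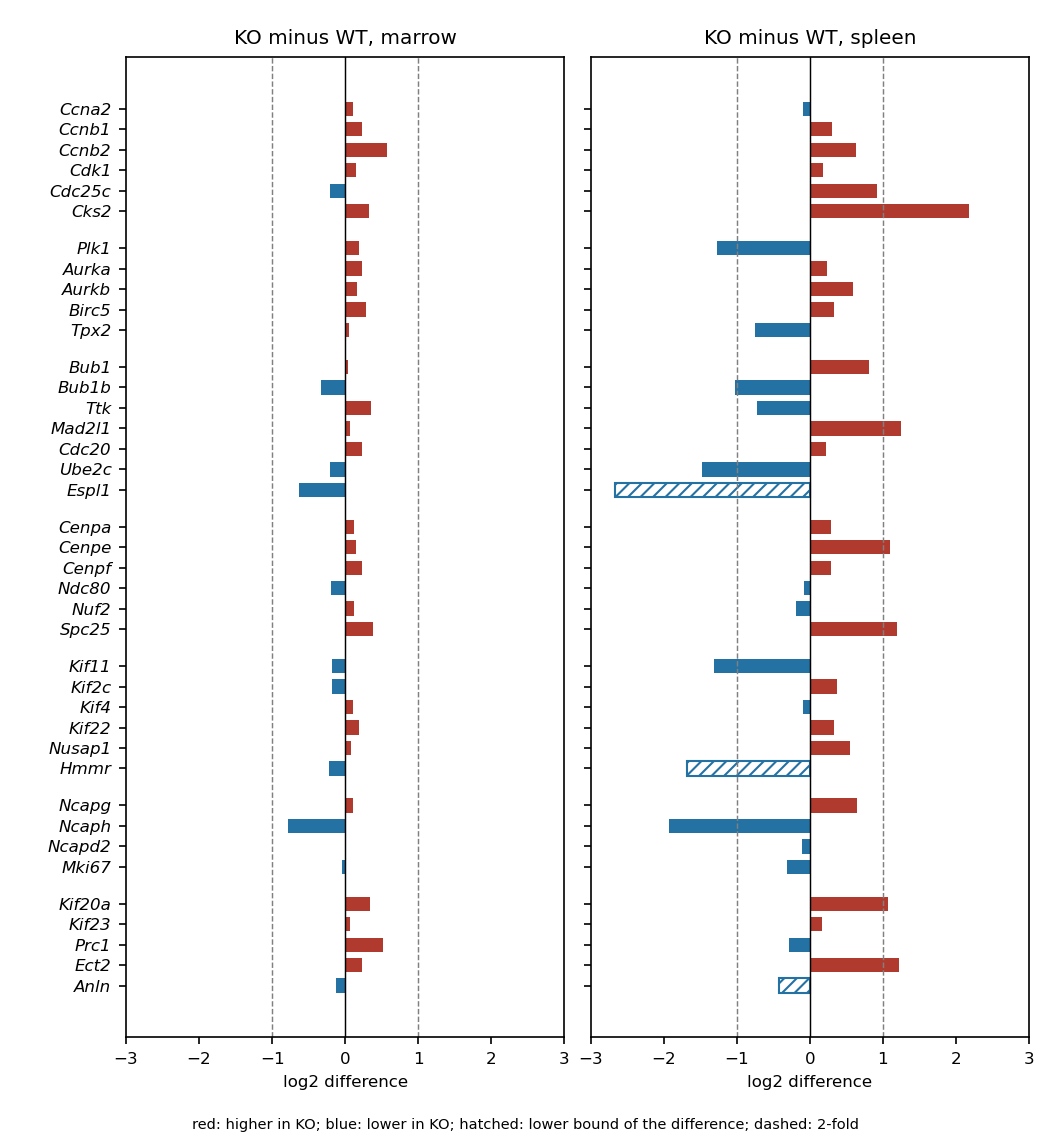
KO minus WT log2 difference of each of the 39 genes in marrow (left) and spleen (right), grouped by role as in the plot of levels; red bars are higher and blue bars lower in KO, hatched bars are lower bounds of the size (for Espl1 the measured difference of a dim spot), and dashed lines mark 2-fold. No marrow bar reaches a dashed line, while in spleen 6 bars pass the line on the right and 7 that on the left.

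The genes higher on spleen KO came from several roles. Cks2, at 15.2 on KO and 3.34 on WT, differed by 2.18 (4.53-fold), and a second probe for it, at chr13:51745808-51745867 of mm9 beside the brightest at chr13:51745898-51745957, differed by 2.25. Mad2l1 differed by 1.24 and by 0.96 on its second probe, and Kif20a by 1.08 and 0.79. Ect2 differed by 1.21, Spc25 by 1.20 and Cenpe by 1.09; other probes of Ect2 and Cenpe went the other way. The 3 with agreeing second probes are a Cdk1 partner, a checkpoint protein and a cytokinesis motor. Both Kif20a probes overlap, with midpoints 27 bases apart, so their agreement is not an independent check. Before scaling, Cks2 was at 7881 units on spleen KO and 3245 on spleen WT. The others lay less than 2-fold apart, Mad2l1 at 1082 and 853, Kif20a at 1397 and 1238, and Ect2 at 336 and 270. Spc25 was at 581 and 473 and Cenpe at 1570 and 1372. Except for Cks2, these 2-fold differences thus rest on the scaling of the dimmer spleen KO array.

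The genes lower on spleen KO were Espl1, 6.38-fold at its own dim level (0.0383 on KO, not well above background, and 0.244 on WT), and Hmmr, at least 3.21-fold (0.0271 on KO, not well above background, and 0.105 on WT). Ncaph differed by -1.93, Ube2c by -1.47, Kif11 by -1.32, Plk1 by -1.27 and Bub1b by -1.03. Anln had a bound of only 1.34-fold lower. Espl1 and Ncaph were thus the genes that were lower by more than 1.5-fold on KO in both tissues.

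Relative to the marrow, the spleen value was less reduced in KO than in WT by at least 2-fold in 3 genes, Cks2 (2.73-fold lower in KO and 9.82-fold in WT), Mad2l1 (3.20-fold in KO and 7.23-fold in WT) and Cdc25c (4.28-fold in KO and 9.35-fold in WT). It was more reduced in KO by at least 2-fold in 8 genes, with Espl1, Hmmr and Anln taken at their own dim signal; at its bound Anln was 14.4-fold lower in KO and 11.7-fold in WT. Among the others Plk1 was 23.2-fold lower in KO and 8.42-fold in WT, Ube2c 21.2-fold in KO and 8.86-fold in WT, Kif11 29.2-fold in KO and 13.3-fold in WT, and Ttk 19.1-fold in KO and 9.10-fold in WT. Cdc25c had low spleen signals, nearly equal before scaling at 35.8 units in KO and 35.3 in WT. Before scaling Mad2l1 was at 1082 units in KO spleen and 853 in WT spleen, and Cks2 at 7881 and 3245. The places of all 3 genes thus rest on the scaling, that of Cks2 least. The second probe of Cdc25c was not well above background in KO spleen. That probe fell at least 5.17-fold in KO and 8.17-fold in WT, which leaves the order open. For Ttk the spot error in KO spleen was 19.3% of its signal. Its gap between genotypes, -1.07 (log2), only just passed 2-fold. For Ccnb1, Ccnb2, Cdk1, Aurka, Birc5, Cdc20, Cenpf and Kif23 the reductions of both genotypes lay closest, at most 0.095 apart on the log2 scale (Kif23), as with 11.9-fold in KO and 11.7-fold in WT for Cdc20. The counts of 3 and 8 genes were not made over all genes, so they describe this set and do not mark it out. Whether the tissue difference depends on genotype was not tested, since that term leaves no residual degree of freedom.

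Between genotypes, probes of the same gene lay farther apart in spleen than in marrow. In all, 64 probes stood for the 39 genes, 21 genes had 2 or more and 18 had 1. Among genes with at least 2 measured probes, the KO minus WT differences lay over 2-fold apart for 5 of 11 in spleen and for 0 of 19 in marrow, and all probes had the same sign for 7 of 11 in spleen and 13 of 19 in marrow. In spleen the probe values were 0.81 and -1.86 for Bub1, 1.09 and -0.84 for Cenpe, -1.32 and 1.49 for Kif11, -0.31 and -1.59 for Mki67, and -0.10, -1.09 and -1.51 for Ncapd2, with the brightest probe first. Ccnb1 also had probes of both signs, at 0.30, -0.09 and -0.63. The direction of Bub1, Cenpe, Kif11 and Ccnb1 in spleen therefore depends on the probe. Further genes with a positive brightest probe had another that was well above background on spleen WT and not on spleen KO, which gives a bound in the opposite direction. These bounds were at least 3.79-fold lower in KO for Ncapg (brightest 0.65), 1.65-fold for Cenpa (0.29), 1.11-fold for Ect2 (1.21) and 1.04-fold for Nusap1 (0.55), and 3.03-fold for another probe of Cenpe. The second probe of Cdc25c (brightest 0.92) was likewise above background on spleen WT only, and its bound gave no fold above 1.

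**Figure D5:**
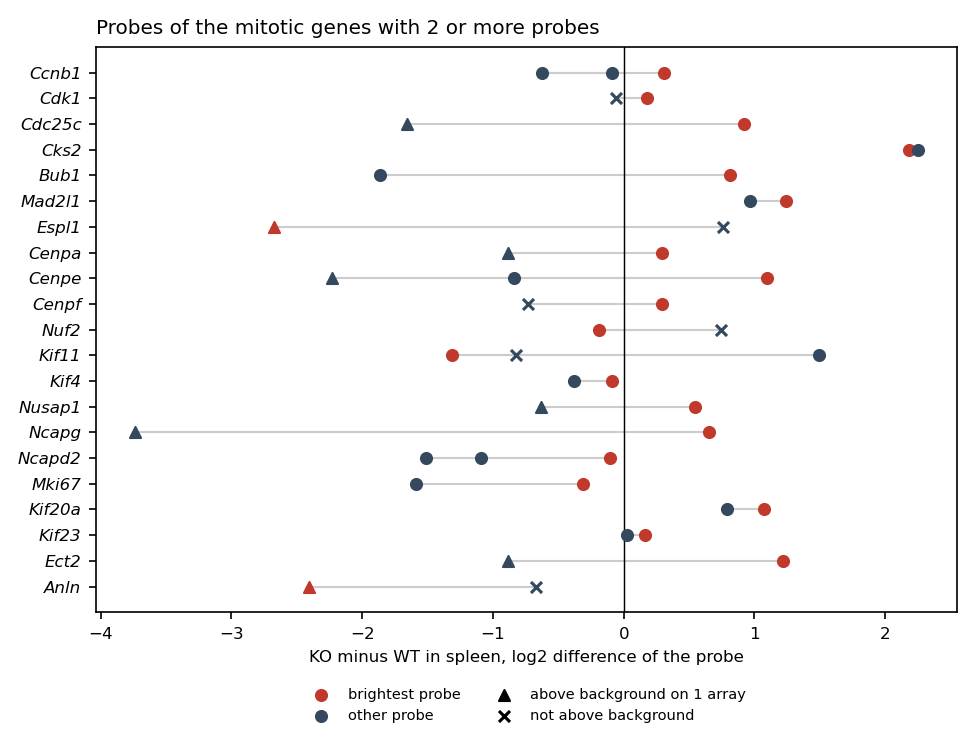
KO minus WT log2 difference in spleen for each probe of the 21 genes with 2 or more probes; red marks the brightest probe, circles are probes measured on both arrays, triangles probes well above background on 1 array (at their own measured difference) and crosses probes above background on neither. The probes of Cks2, Mad2l1, Kif20a and Kif23 lie close together, and those of Bub1, Cenpe and Kif11 on both sides of 0.

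In the tissue difference, all measured probes had the same sign for 9 of 11 genes in KO and 15 of 16 in WT, while its size varied, with probes over 2-fold apart for 2 of 11 genes in KO and 8 of 16 in WT. The exception in WT was Bub1. Its brightest probe (chr2:127626988-127627047, mm9) differed by -3.41 in KO and -4.18 in WT, while its second (chr2:127626326-127626385, from another reference transcript) had a relative signal of 0.548 on spleen KO and 1.99 on spleen WT, against 0.412 on marrow KO and 0.615 on marrow WT, which is 0.41 higher in spleen in KO and 1.70 in WT. A second probe of Kif11 was also higher in spleen in KO, by 0.49, and lower in WT, by -1.60.

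Other cell cycle genes also went both ways between the spleen arrays. The 81 other mitotic genes had a median of 0.35 in spleen, with 15 of them higher in KO by 2-fold or more and 12 lower. Over all genes 19.8% were higher and 14.4% lower by that much, so the shares of these 81 were close to those of all genes. In marrow only Pttg1 of the 81 was higher by 2-fold or more (1.26) and 0 were lower, against 8.35% and 4.9% of all genes. In spleen the ends were Smc4, a condensin subunit (2.52), and the centromere gene Cenpq (2.45) on 1 side, and the cytokinesis kinase Cit (-2.55) and the centromere gene Cenpm (-2.01) on the other. The 28 replication genes had a median of 0.71 in spleen, and 10 passed 2-fold upwards in KO and 2 downwards, among them the licensing inhibitor Gmnn at 2.74 and thymidine kinase, Tk1, at -1.22. The activator Foxm1 differed by -0.88 and the MuvB subunit Lin9 by 1.82. No test compared these lists with the 39 genes.

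Markers of the B lineage, of several other cell types and of the array differed between the spleen arrays as well. Of the 7 B lineage markers 3 were higher and 3 lower in KO by 2-fold or more (median 0.24), with the B cell receptor subunit Cd79a lowest (-2.46). Of the 6 measured pro-B and pre-B markers 5 lay above 0 and 2 passed 2-fold upwards (median 0.53), although their sum was lower on KO. Erythroid markers summed to 170 on spleen KO and 26.2 on spleen WT, with 8 of 8 well above background on both, and 6 of them were higher in KO by 2-fold or more. Neutrophil markers summed to 146 on spleen KO and 11.2 on spleen WT. Of 11 above background on at least 1 of these arrays, 7 passed 2-fold upwards in KO. All 5 plasma cell markers were lower in KO, 3 of them by 2-fold or more (median -1.01). T markers went both ways (median 0.05). Macrophage markers were higher in KO in 4 of 6 (median 0.20), and all 3 measured progenitor markers were lower (median -0.80). Germinal centre markers, of B cells that divide after antigen, summed to 39.8 on spleen KO and 16.6 on spleen WT over 5 genes, of which Bcl6 made 38.2 on KO and 15.6 on WT, and Mybl1, S1pr2 and Gcsam were not well above background on KO. The probe of ribosomal RNA Rn18s, looked at after its value was seen, was lower by -7.71 on spleen KO and by -2.43 on marrow KO. The part of these differences in the spleen values of the mitotic genes was not tested.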

How the data were processed

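Each deposited scanner file gives the linear intensity of every spot on 1 array. Per the file headers, the authors used Agilent Feature Extraction 10.5.1.1, probe positions refer to mm9, and the signal was background-corrected and detrended within the array, with surrogate values at the low end and no step that sets arrays on 1 scale. The deposited table of the series held the same intensity values at all 45018 spots.

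Control spots and 72 to 85 outlier spots per array were left out, which left 43379 gene spots less outliers for 41174 probes; 0 were saturated. Each array's 75th percentile was subtracted from its log2 signals and repeated spots were averaged. Probes outside the 39 genes were named through their accession in a RefSeq table (GRCm38.p6) where it matched (25042 probes), otherwise by the file's name. The 22059 genes above background somewhere were tested with limma 3.58.1 in R 4.3.3 (lmFit and eBayes, tissue and genotype as terms, Benjamini-Hochberg). The fit was also run on data simulated under its own assumptions, which does not check those assumptions for these arrays. If both tissues came from the same mice, the arrays are not independent. The members, gene lists and tests were chosen with earlier results of these data known. All 39 members are accounted for; from other lists the 3 highest and 3 lowest differences of a comparison could be named. Alternatives were quantile, cyclic loess and median scaling, normexp (offset 50), the median or mean over probes, no filter and a 1.5-fold threshold, and, chosen after seeing the data, the probe nearest the 3' end. Markers outside those ends that are named with values were looked at after their values were seen. A few cell type markers are not reported here, and their lists were summed without them.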

Additional observations from a re-analysis of the deposited data

Results flagged for a closer look

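The KO minus WT difference of Plk1 had opposite signs in the tissues. It was -1.27 in spleen, where the relative signal was 0.966 on KO and 2.33 on WT, and 0.19 in marrow, where it was 22.4 on KO and 19.6 on WT. The marrow value lies within 1 spot error of 0, each value rests on 1 array per genotype, Plk1 has 1 probe, and the difference between the tissues was not tested.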

How the results depend on the processing

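The 39 genes stayed at least 2-fold lower in spleen than in marrow in both genotypes under every alternative except normexp in KO (38 genes) and the probe nearest the 3' end (37 genes in KO and in WT), where 1 gene, Bub1, was at least 2-fold higher in WT. Between tissues the median of -3.68 in KO was -3.94 with cyclic loess, -3.46 with array medians and -3.31 with normexp, and the median of -3.56 in WT was -3.35 with cyclic loess and -3.19 with the median over probes. In marrow, 2 genes were lower in KO at a 1.5-fold threshold. In spleen, the KO minus WT median of 0.26 turned to -0.18 with cyclic loess and -0.094 with the median over probes, and was 0.68 with array medians and 0.023 with the probe nearest the 3' end, so its sign is not settled. The 6 higher genes there were 3 with cyclic loess, 3 with the median over probes, 11 with array medians and 11 at 1.5-fold, and the 7 lower were 4 with array medians and 4 with normexp. The cause of these changes was not tested. Array medians moved the KO minus WT median of all genes in spleen to 0.69, against 0.27. Among all genes 2-fold apart there, the share higher in KO was 57.9%, against 79.8% with array medians, 69.9% with normexp and 42.1% with the median over probes; in marrow it was 63.0%, against 74.9% with cyclic loess, 75.2% with normexp and 52% without a filter. The share higher in spleen was 53.1% in KO and 49.6% in WT, against 65.1% in KO and 38.8% in WT with array medians; in KO it was 43.9% with cyclic loess and 43.5% with the median over probes. limma's genotype term called 10 genes in all, against 2 with quantile scaling, 0 with cyclic loess, 443 with array medians, 629 with normexp, 5 with the mean over probes and 593 without a filter, and none of the 39 in any of these. Its tissue term called 1180 lower and 622 higher, against 687 and 262 with cyclic loess, 1226 and 1123 with normexp and 1533 and 1152 without a filter. No paired analysis was possible because the labels give no replicate numbers and 1 array per group, which also leaves no replicate to omit. Low signal on spleen KO limits Hmmr and Anln to bounds and Espl1 to the difference of a dim spot.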
